A study of Mus musculus with 40 samples.

Results

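The 50 features described here are the most counted unnamed features of 5 cecal bacteria in mice that ate no broccoli. In each of 5 genome tables (X. muris, L.bacterium335, Acetatifactor, D. muris and F. rodentium) they were chosen by summed count over the 10 libraries at 0% broccoli: the 10 highest features that carry an identifier but no gene symbol, out of 10936 such features in the 5 genomes and 18455 features in all 6 tables. They are called members and named by genome and rank, rank 1 having the highest count at 0%. RNA came from the cecal contents of C57BL/6 mice that started on the Total Western Diet at 3 weeks of age. After 6 weeks on it alone, broccoli powder made up 0%, 0.5%, 1% or 2.5% of that diet for 3 more weeks, with 10 libraries at each level, so every group had the same Western-type background. The labels do not say that each library is a separate mouse, and p-values measure the spread between libraries. Genome names are those of the deposited tables.

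In RNA sequencing of a mixed community, reads are matched to reference genomes. The count on a feature depends on how much of the organism is there, how strongly the feature is transcribed and how deeply the library was sequenced. It also depends on how reads that match several genomes are treated, which is not given here. If all features of a genome are read from a single organism and only its amount changes, their counts move together and each keeps a steady ratio to the rest of that genome. The count of a member was therefore set against 3 kinds of total: the rest of its own genome, the rest of each other genome, and the rest of all 6 tables together, each without the members. The tables do not pair these identifiers with gene names, so no role is given for them, and no feature lengths were used, so counts of different features are not levels that can be compared.

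The 40 libraries held 236483 to 5107249 counts over the 6 tables, with a median of 825813. Counts per library ranged from 161 to 4882829 on F. rodentium, 18763 to 814317 on L.bacterium335, 15726 to 246887 on Acetatifactor, 3108 to 172785 on D. muris and 1762 to 289859 on X. muris. One library stood apart: 2.5% replicate 9 had 352 counts on F. rodentium and 2435 on X. muris, of which 27 lay outside the X. muris members. The libraries numbered 76 to 81, which hold 4 of the 10 libraries at 0.5% and 1 each at 1% and 2.5%, were also left out in turn. Results by dose that these libraries change are given with and without them where such fits were made.

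Because the 0% counts chose the members, values at 0% are a description and carry no p. All tests between doses and of correlations used the 30 libraries with broccoli, in which all 50 members passed the filter of at least 10 counts in at least 7 libraries. The test of each feature was the two-sided quasi-likelihood test of edgeR, adjusted by Benjamini-Hochberg over all features of its genome, and called means an adjusted p under 0.05. Each log2 fold change is given ± its standard error, from 10 libraries in each group. Fits were made on unscaled counts as deposited, on counts relative to the rest of the own genome, and on counts relative to the rest of the 6 tables.

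The members took most of the counts of 3 genomes at 0% and less at each higher dose, and a smaller part of D. muris and F. rodentium. Because the 0% counts chose them, a share that is highest at 0% is in part set by the choice. In L.bacterium335 the median share of the genome's counts on its 10 members was 82.7% at 0%, 53.0% at 0.5%, 40.7% at 1% and 9.98% at 2.5%. In X. muris it was 90.7%, 83.3%, 66.4% and 54.1% at the same doses. In Acetatifactor it was 63.9%, 46.1%, 42.7% and 28.6%. The 0% libraries of L.bacterium335 lay between 68.1% and 87.9%, and 9 of the 10 libraries at 2.5% lay between 4.09% and 19.4%. The tenth, replicate 9, had 85.0%, inside the 0% range. The same library had 98.9% of its X. muris counts on the members, above all 10 libraries at 0%. In F. rodentium the share stayed between medians of 12.3% and 15.9% over the 4 doses. In D. muris it was 13.7% at 0% and 7.73% to 8.34% with broccoli, and 0.5% replicate 1, with 3108 counts on this genome, had 31.6%.

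**Figure D1:**
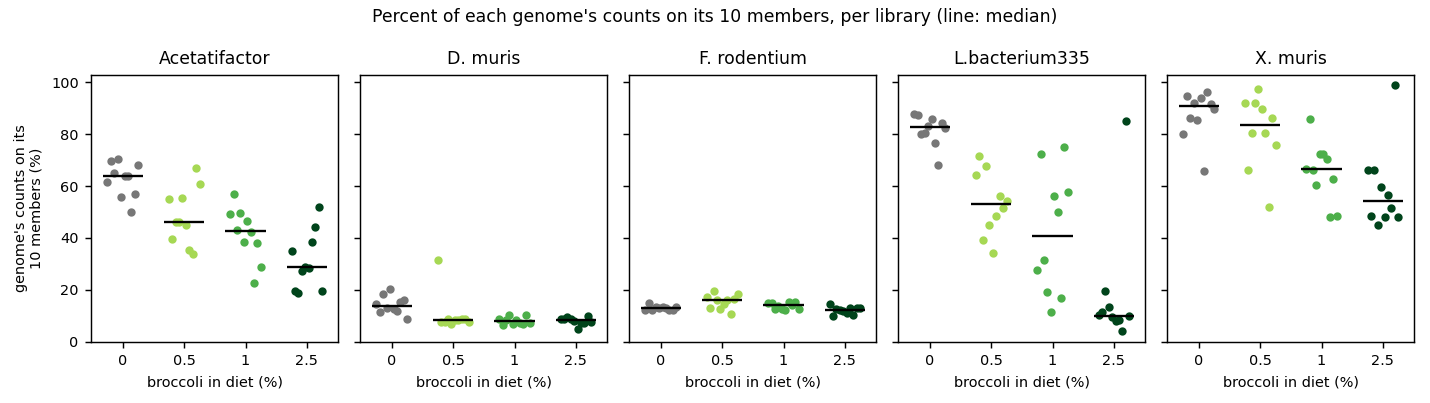
Percent of each genome's counts that lay on its 10 members (vertical axis) at each level of broccoli (horizontal axis, percent of the diet); each point is 1 library and each line the median of 10. The shares of Acetatifactor, L.bacterium335 and X. muris are lower at higher doses, apart from 2.5% replicate 9 at 85.0% in L.bacterium335 and 98.9% in X. muris.

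The edge of the choice was close in some genomes and wide in others. Summed over the 0% libraries, rank 10 and the next feature had 49180 and 49016 counts in F. rodentium, 1501 and 1443 in D. muris, 4269 and 3880 in Acetatifactor, 239 and 229 in X. muris, and 4315 and 2332 in L.bacterium335. Ranks 9 and 10 of D. muris tied at 1501. Ranked by the same sum at the other doses, 9 of the 10 F. rodentium members were among the 10 most counted symbol-less features at each dose. In L.bacterium335, 8 members were among them at 0.5%, 6 at 1% and 3 at 2.5%. In all 5 genomes together the number kept was 39 of 50 at 0.5%, 33 at 1% and 29 at 2.5%.

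Members of F. rodentium fell with the rest of their genome. Rank 1 had lowest, median and highest counts of 945, 11654 and 45044 at 0%, 3628, 12960 and 65438 at 0.5%, 284, 4830 and 35084 at 1%, and 1, 1754 and 12435 at 2.5%. The rest of the genome had medians of 446074 at 0%, 655912 at 0.5%, 222684 at 1% and 65474 at 2.5%. The groups overlapped for both, and both medians were lowest at 2.5%. In such bulk RNA, fewer bacterial cells and less RNA per cell cannot be told apart. At 2.5% against 0.5%, all 10 members were called lower in unscaled counts, beside 89% of the genome's 1758 tested features. Their median log2 fold change was -3.15, beside -2.62 over all features. The 2 members that fell most were gene:ENSB:iKrDi_BF_he1_tR (rank 3, log2 fold change -5.06 ± 1.13, edgeR adjusted p = 0.00155) and gene:ENSB:1HTgECl4MjfQABZ (rank 10, -4.94 ± 1.11, edgeR adjusted p = 0.0018). Without the libraries numbered 76 to 81, which leaves 6 libraries at 0.5%, none of the 10 was called in unscaled counts, with a median of -2.65, beside 0.0601% of 1664 features.

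Relative to the rest of F. rodentium, 3 of the 10 members (ranks 3, 6 and 10) were called lower at 2.5% than at 0.5%, beside 1.08% of all features. Rank 3 had 0, 492 and 5678 counts (lowest, median, highest) at 2.5% and 4676, 27042 and 292149 at 0.5%. Set against the genome, its log2 fold change was -2.01 ± 0.34 (edgeR adjusted p = 0.000264). That of rank 10 was -1.96 ± 0.33 (edgeR adjusted p = 0.000264), and that of rank 6 was -0.73 ± 0.20 (edgeR adjusted p = 0.0431). The other 7 ranged up to 0.28, for rank 4, and the median of the 10 was 0.01, beside 0.13 over all features. Ranks 3 and 10 had the most closely correlated counts of any pair of F. rodentium members (Pearson r = 0.996 within dose over the 30 libraries). Relative to the 6 tables, all 10 were called lower, beside 97.6% of the features.

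Most members of L.bacterium335 changed little in count between doses, while the rest of their genome had a higher median at each dose. Rank 1 had 3811, 24446 and 68611 counts (lowest, median, highest) at 0%, 2438, 22190 and 64254 at 0.5%, 5845, 21114 and 82839 at 1%, and 10528, 23292 and 51659 at 2.5%. Rank 3 had 2745, 6829 and 10890 at 0%, 3014, 6438 and 11231 at 0.5%, 2770, 8199 and 10333 at 1%, and 4779, 6984 and 10037 at 2.5%. Rank 5 had higher medians with dose, with 177, 1584 and 9483 at 0%, 137, 1798 and 9341 at 0.5%, 464, 2542 and 10674 at 1%, and 2266, 4564 and 7754 at 2.5%. Every dose overlapped every other for all of these. The rest of the genome had medians of 13145 at 0%, 34266 at 0.5%, 96494 at 1% and 473519 at 2.5%.

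At 2.5% against 0.5% in unscaled counts, 1 of the 10 L.bacterium335 members was called higher, beside 89.1% of the genome's 2585 tested features. It was rank 8, with 435, 995 and 2501 counts at 2.5% and 253, 600 and 823 at 0.5% (log2 fold change 1.10 ± 0.52, edgeR adjusted p = 0.046). Without the libraries numbered 76 to 81 it was not called, beside 64% of the features. The members' median log2 fold change was 0.47, beside 3.31 over all features of the genome. For rank 1 the change was 0.02 ± 0.49, with a 95% interval of -0.95 to 0.99. For rank 3 the interval was -0.80 to 0.80, and for rank 5 the change was 0.83 ± 0.61, with an interval of -0.38 to 2.03. These intervals leave out the median change of the genome.

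Relative to the rest of L.bacterium335, none of the 10 members was called at 2.5% against 0.5% by edgeR, beside 1.43% of features called lower. Of the 10, 3 had an unadjusted p under 0.05, and DESeq2 called 0. All 10 changes were negative, with a median of -1.19 beside 0.35 over all features. This count changed with 2.5% replicate 9 and with the scaling. Without that library, all 10 members were called lower, beside 10.5% of 2579 features, and their median was -3.26. With the library kept, 10 were called lower with TMM factors (beside 7.16% of features), 6 with the members in the denominator (2.44%) and 4 with RLE factors (1.28%). Without 2.5% replicate 9, rank 1 had a log2 fold change of -3.51 relative to the genome. In the main fit with that library it was -0.53 ± 0.82 (95% interval -2.13 to 1.07). Relative to the 6 tables, 1 member (rank 8) was called higher, beside 89% of the features. That call was lost without 2.5% replicate 9 and without the libraries numbered 76 to 81, and DESeq2 called 3.

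Acetatifactor held 3 kinds of member. Ranks 2, 3, 4, 7, 8, 9 and 10 had steady unscaled counts: rank 4 had lowest, median and highest counts of 291, 1171 and 3283 at 0%, 730, 1264 and 2521 at 0.5%, 754, 1154 and 2594 at 1%, and 505, 1222 and 2124 at 2.5%. Its log2 fold change at 2.5% against 0.5% was -0.07 ± 0.42 in unscaled counts, with a 95% interval of -0.90 to 0.76. Rank 6 was low at 0%, with 5, 210 and 2866 counts, and had 0, 1950 and 10997 at 0.5%, 1928, 9067 and 51044 at 1%, and 20, 20141 and 33017 at 2.5%. Ranks 1 and 5 spread widely at the higher doses. Rank 1 had 6648, 9332 and 13486 counts at 0%, 1507, 3501 and 15685 at 0.5%, 300, 7418 and 28921 at 1%, and 331, 4625 and 28730 at 2.5%. Rank 1, rank 5 and the next feature below the edge of the choice carry consecutive numbers in their identifiers, and ranks 1 and 5 moved together (Pearson r = 0.940 within dose).

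At 2.5% against 0.5%, 1 of the 10 Acetatifactor members, rank 6, was called higher in unscaled counts (log2 fold change 2.34 ± 0.80, edgeR adjusted p = 0.0112), beside 77.3% of the genome's 1576 tested features. The members' median change was 0.35, beside 2.58 over all features. Relative to the rest of the genome, the 7 members with steady counts were called lower, beside 3.3% of all features. Rank 3 changed most, and its log2 fold change there was -2.50 ± 0.47 (adjusted p = 0.0005 by edgeR). Rank 6 had 0.48 ± 0.55, with an interval of -0.61 to 1.57, so it was not set apart from its genome. Ranks 1 and 5 had -1.16 ± 0.58 and -1.44 ± 0.68 and were not called (edgeR adjusted p = 0.202 and 0.188). The count of lower members was 8, beside 4.23% of features, without 2.5% replicate 9, and 3, beside 1.52%, without the libraries numbered 76 to 81. It was 2 with RLE factors, 3 with the members in the denominator and 5 with TMM factors. No share of all features is at hand for these other scalings. Relative to the 6 tables, 3 members were called higher, beside 78.9% of the features, and 1 without 2.5% replicate 9.

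X. muris was dominated by a single feature. Rank 1 took a median of 87.3% of the genome's counts at 0%, 80.5% at 0.5%, 61.3% at 1% and 49.4% at 2.5%. Its counts were 3025, 14402 and 33905 (lowest, median, highest) at 0%, 1313, 20266 and 45362 at 0.5%, 7238, 24908 and 53835 at 1%, and 2372, 60049 and 120499 at 2.5%. The rest of the genome had medians of 1260 at 0%, 3365 at 0.5%, 17101 at 1% and 53030 at 2.5%. The lowest count of rank 1 at 2.5% was that of replicate 9.

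The other 9 X. muris members fell into a pair of sets. Ranks 5, 6, 8 and 10 rose with the genome: rank 8 had 2, 22 and 256 counts at 0%, 8, 98 and 598 at 0.5%, 24, 494 and 896 at 1%, and 0, 1564 and 4966 at 2.5%. Ranks 2, 3, 4 and 9 changed less. Rank 2 had 53, 100 and 232 counts at 0%, 16, 63 and 448 at 0.5%, 51, 116 and 268 at 1%, and 20, 118 and 301 at 2.5%. These 4 have neighbouring identifiers, 1 or 2 steps apart in the numbering, and their within-dose correlations between neighbours were 0.792, 0.926 and 0.827. Rank 7 lay between, with medians of 23.5 at 0%, 81.5 at 0.5%, 187 at 1% and 400.0 at 2.5%.

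At 2.5% against 0.5%, 5 of the 10 X. muris members (ranks 1, 5, 6, 8 and 10) were called higher in unscaled counts, beside 96.2% of the genome's 1057 tested features. The largest rises were those of HPS56_RS02740 (rank 6, log2 fold change 3.77 ± 0.90, edgeR adjusted p = 0.000942) and HPS56_RS02045 (rank 8, 3.74 ± 0.91, edgeR adjusted p = 0.00104). Rank 1 changed by 1.59 ± 0.62 (edgeR adjusted p = 0.012), and was not called without the libraries numbered 76 to 81 (1.07). Relative to the rest of the genome, ranks 2, 3, 4, 7 and 9 were called lower, beside 3.03% of all features. Rank 2 changed by -3.53 ± 0.72 (edgeR adjusted p = 0.000562) and rank 3 by -2.78 ± 0.40 (edgeR adjusted p = 9.1e-07). Ranks 5, 6, 8 and 10 had 0.33 to 0.48 and were not called. Rank 1 had 0.16 ± 0.89, with an interval of -1.58 to 1.91, and without 2.5% replicate 9 its change was -2.94 and 6 members were called lower, beside 3.12% of features. With RLE factors in place of the rest of the genome the direction turned: 4 members were called higher, beside 95.6% of features, and 0 lower (0%), with a median of 0.69 against -0.69. Relative to the 6 tables, 5 members were called higher, beside 92.1% of the features.

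In D. muris no member was called at 2.5% against 0.5%, and few features of the genome were. Rank 1 had 719, 1389 and 3241 counts (lowest, median, highest) at 0%, 523, 849 and 2677 at 0.5%, 597, 1388 and 2185 at 1%, and 216, 1506 and 4188 at 2.5%. Rank 10 had 18, 167 and 252 at 0%, 19, 294 and 660 at 0.5%, 166, 345 and 657 at 1%, and 35, 571 and 1059 at 2.5%. The doses overlapped for both. In unscaled counts edgeR called 0 of 10 higher, beside 0.487% of the genome's 1436 tested features, with 1 member at an unadjusted p under 0.05 and 0 called by DESeq2. The median change was 0.84, beside 1.03 over all features. With only libraries of at least 10000 counts on the genome, 6 were called higher, with a median of 0.89, beside 32.5% of features. Without 2.5% replicate 9 this number was 2, beside 30.6%. Relative to the rest of the genome 0 were called, beside 0.0696% of features called lower, with 3 at an unadjusted p under 0.05 and 0 by DESeq2. The changes there ranged from -1.20 (rank 1) to 0.31 (rank 5), with a median of -0.07. Relative to all tables together 0 were called higher, beside 0.627% of features, with 0 at an unadjusted p under 0.05 and 0 by DESeq2.

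**Figure D2:**
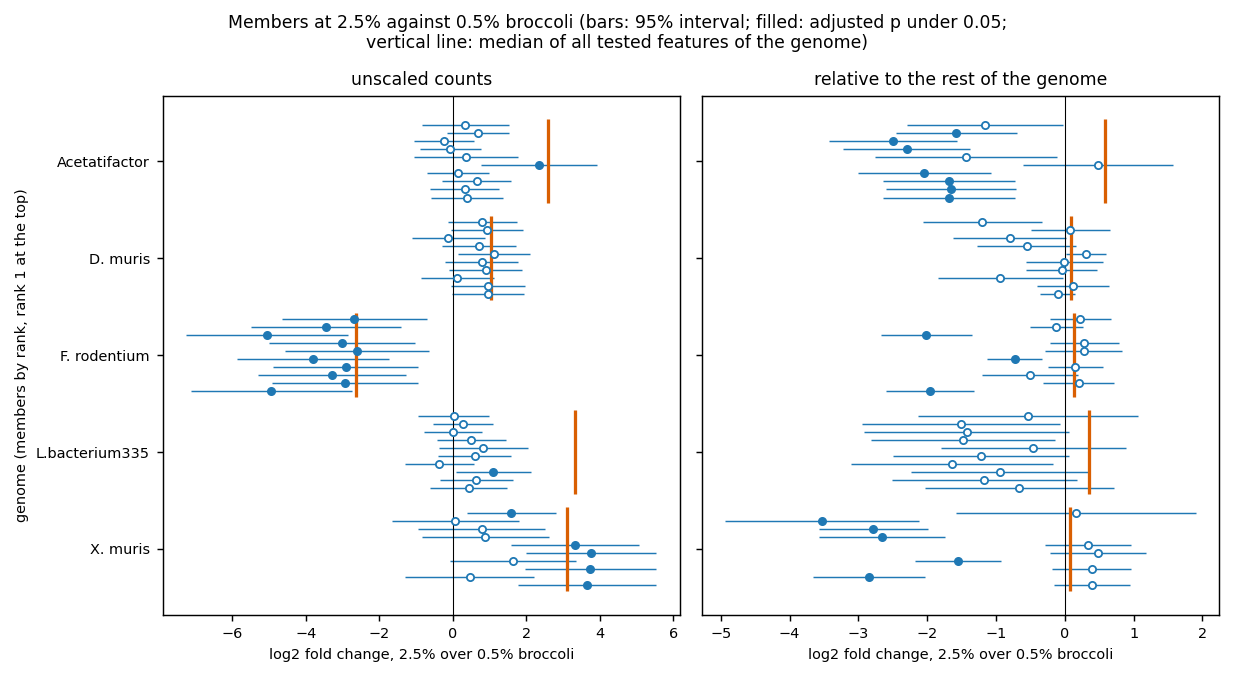
Log2 fold change of each member at 2.5% over 0.5% broccoli (horizontal axes), in unscaled counts on the left and relative to the rest of the genome on the right, with members in rank order within each genome (vertical axis). Bars are 95% intervals, filled points have an adjusted p under 0.05, and vertical lines are the medians of all tested features: the L.bacterium335 members lie between -0.38 and 1.10 on the left, where their genome's median is 3.31, and the F. rodentium members lie near or below -2.62, their genome's median.

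**Figure D3:**
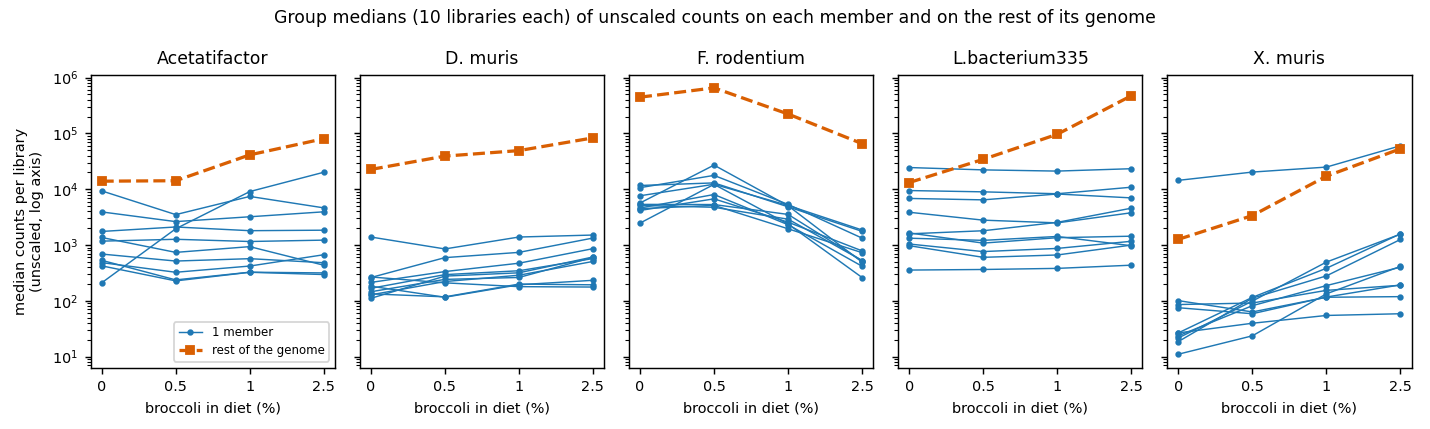
Median unscaled counts per library (vertical axes, log scale) at each level of broccoli (horizontal axes, percent of the diet) for each of the 10 members of a genome (solid lines) and for the rest of that genome (dashed line), with 10 libraries behind each point. Most members of L.bacterium335 and Acetatifactor run level while the dashed lines climb, to 473519 and 80402 at 2.5%.

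Intermediate steps of dose gave few calls. At 1% against 0.5%, edgeR called 0 of the 50 members in unscaled counts (beside 0.0594% of 8412 features in either direction), 0 relative to the own genome (0.214%) and 0 relative to all tables together (4.81%). At an unadjusted p under 0.05 there were 4, 14 and 6 members in these fits, and DESeq2 called 0, 3 and 3. At 2.5% against 1%, edgeR called 0 members in unscaled counts (0.0357%), with 9 at an unadjusted p under 0.05 and 5 called by DESeq2. Relative to the own genome it called 2, beside 0.392% of features: X. muris rank 3 (log2 fold change -1.46 ± 0.38, edgeR adjusted p = 0.0331) and rank 9 (-1.68 ± 0.39, edgeR adjusted p = 0.019). Without 2.5% replicate 9 that count was 15, beside 2.92% of features, and without the libraries numbered 76 to 81 it was 0, beside 0.131%. Relative to the 6 tables, the 10 F. rodentium members were called lower, beside 16.7% of all features called, and 0 were called without the libraries numbered 76 to 81, beside 0.0261%.

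Which total each member followed was described by the spread of its ratio to that total: the SD, over the 30 broccoli libraries, of log2((count + 0.5)/total), smaller meaning a steadier ratio. Of 7 totals, the own genome gave the smallest SD for 32 of the 50 members, another genome for 10 and the 6 tables for 8. All 10 members of F. rodentium and 9 of 10 of D. muris were steadiest against their own genome, as were 7 of Acetatifactor and 5 of X. muris. In L.bacterium335 this held for 1 member, rank 5. Of the other 9, 7 were steadiest against Acetatifactor and 2 against the 6 tables. Among X. muris members, ranks 5, 6, 7, 8 and 10 were steadiest against X. muris, ranks 3 and 9 against D. muris, rank 1 against Acetatifactor, and ranks 2 and 4 against the 6 tables. Over all members, the numbers without 2.5% replicate 9 were 29 for the own genome, 7 for another genome and 14 for the 6 tables. Without that library, 1 member of L.bacterium335 was steadiest against its own genome, 3 against another genome and 6 against the 6 tables, and in Acetatifactor 4 were steadiest against their own genome and 6 against the 6 tables. Without the libraries numbered 76 to 81, D. muris had 6 members steadiest against its own genome and 4 against the 6 tables, and L.bacterium335 had 7 against another genome and 0 against its own.

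Steadiest of the 7 did not always mean steady. All 10 L.bacterium335 members and 9 of 10 Acetatifactor members varied less when left unscaled than against any total, as did 3 of D. muris, 1 of X. muris and 0 of F. rodentium. The median SD of the L.bacterium335 members was 0.71 unscaled, 1.83 against their own genome and 1.22 against the 6 tables. For Acetatifactor these medians were 0.82, 1.22 and 1.34. For F. rodentium they were 3.25, 0.71 and 2.89, for D. muris 1.27, 0.84 and 1.3, and for X. muris 2.26, 1.31 and 1.97. The steadiest single ratio to an own genome was that of D. muris rank 10, with an SD of 0.21. The log2 totals themselves had SDs of 1.05 (all tables), 1.3 (D. muris), 1.37 (Acetatifactor), 2.01 (L.bacterium335), 2.64 (Alistipes), 2.93 (X. muris) and 3.17 (F. rodentium). For a member whose count varies little, the SD of the ratio is set largely by the SD of the total. Every member not steadiest against its own genome was so against all tables, D. muris or Acetatifactor, the least variable totals. Such a pick therefore does not show that the member followed that total.

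**Figure D4:**
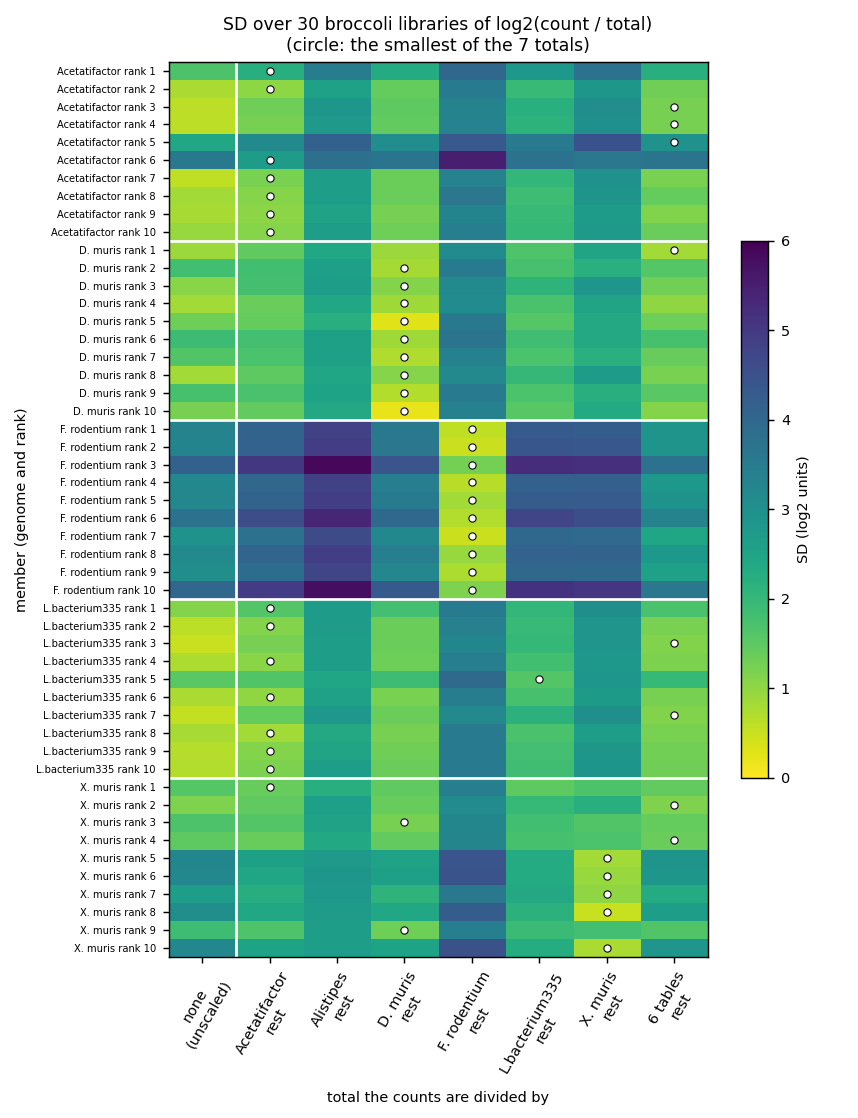
SD over the 30 broccoli libraries of log2(count/total) (colour, log2 units) for each of the 50 members (rows) left unscaled or divided by each of 7 totals (columns); a circle marks the smallest of the 7. Circles stand in the own-genome column for 32 members, and 7 L.bacterium335 members have theirs in the Acetatifactor column; without 2.5% replicate 9, 3 L.bacterium335 members were steadiest against another genome.

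Each library was also scaled to another genome. At 2.5% against 0.5% and relative to D. muris, 0 of the 10 L.bacterium335 members were called lower, beside 0.155% of the L.bacterium335 features, with a median change of -0.04. Relative to Acetatifactor, 3 of the L.bacterium335 members were called lower, beside 0.271% of the L.bacterium335 features, with a median of -1.85. For members of all genomes other than the one scaled to, 13 of 40 were called lower and 2 higher relative to Acetatifactor (25.9% of features called in either direction), and 10 lower and 0 higher relative to D. muris (44.5%), all 10 being of F. rodentium. Relative to L.bacterium335, 20 of 40 were called lower (54% of features), those of F. rodentium and D. muris. Relative to X. muris, 14 were called lower and 3 higher (50.3%). Relative to F. rodentium, whose rest total ranged from 143 to 474330 at 2.5%, all 40 were called higher (100% of features, 6651 of 6654). Relative to Alistipes, 46 of 50 were called lower (58.6%).

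Within a dose, where diet cannot order the libraries, members of F. rodentium, X. muris and D. muris went up and down with their own genome from library to library. Log2 counts were centred on the mean of their dose and correlated over the 30 libraries with each of the 7 totals, with a permutation test within dose (100000 resamples, two-sided) and adjustment over 350 relations. With the rest of the own genome, all 10 members were called positive in F. rodentium (median Pearson r = 0.97), X. muris (0.93) and D. muris (0.91), and 8 of 10 in Acetatifactor (0.63). Tested in the same way, with adjustment over the genome's features, 100% of all F. rodentium features, 100% of X. muris, 98.5% of D. muris and 87.1% of Acetatifactor were called positive, with median r of 0.87, 0.84, 0.83 and 0.78, so calls of these members are near the background. The median Spearman rho was 0.95, 0.88, 0.73 and 0.62 in the same order, and the median r without the 2 libraries farthest from the median total was 0.94, 0.88, 0.73 and 0.58. Acetatifactor ranks 1 and 5 had r of -0.04 and -0.22 (permutation, adjusted p = 0.885 and 0.375). In L.bacterium335, 2 members were called (ranks 5 and 6), beside 91.9% of all its features, whose median r was 0.87. The members had a median r of 0.32, a median rho of 0.35 and a median r of 0.39 without those 2 libraries. At 0.5% its r ranged from 0.45 to 0.81 and at 1% from 0.07 to 0.79, with all 10 positive at both doses. At 2.5% it ranged from -0.61 to 0.08, with 1 positive. In 2.5% replicate 9 the members had their highest summed count of that dose (86521) and the rest of the genome its lowest (15251). An r at 2.5% without this library was not computed. With the rest of Acetatifactor, 6 of the L.bacterium335 members were called, and all 10 were positive with a median r of 0.52. Members of other genomes also went with a total not their own. With the rest of L.bacterium335, 7 D. muris members (median r = 0.56) and 7 X. muris members (0.55) were called. With the rest of D. muris, 5 X. muris members were called (0.59). With the 6 tables, all 10 members of X. muris (0.61) and of F. rodentium (0.64) were called. The share of all features called with a total other than their own was not computed, here or after the division below. A member and a total of the same library share its depth. After both were divided by the 6-table total, which itself adds a shared term, the median r of L.bacterium335 members was 0.41 with their own genome (3 called) and 0.76 with Acetatifactor (10 called). On that scale the members of F. rodentium, X. muris, D. muris and Acetatifactor had medians of 0.96, 0.85, 0.85 and 0.79 with their own genomes. With L.bacterium335, 4 D. muris members (median r = 0.45) and 0 X. muris members (0.33) were then called, and with D. muris 0 X. muris members (0.23).

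Counts of L.bacterium335 members and Acetatifactor members moved together from library to library. Of the 100 pairs with a member from each, 53 were called positive within dose (permutation, adjusted over all 1225 pairs of members), and 8 had r above 0.8. Pairs of other features were not tested, so no background stands beside this or the pair counts below. Between Acetatifactor and D. muris or F. rodentium members, 0 of 100 pairs were called in each case, and between Acetatifactor and X. muris members 3 of 100. For 4 of the 10 L.bacterium335 members (ranks 2, 3, 4 and 7), the partner with the highest r of all 49 other members was in Acetatifactor. For ranks 2, 7 and 8 of Acetatifactor it was in L.bacterium335. All members of F. rodentium, D. muris and X. muris had their best partner in their own genome.

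The closest pair across genomes was rank 2 of L.bacterium335 with rank 4 of Acetatifactor, named after their values were seen. Within dose over the 30 libraries, r was 0.924 and rho 0.895 (permutation, p = 1e-05 for each, the smallest these resamples can give, adjusted p = 9.57e-05 and 0.00011). Without the 2 farthest libraries r was 0.896, and it was 0.905 at 0.5%, 0.930 at 1% and 0.935 at 2.5%. The ratio of rank 2 of L.bacterium335 to rank 4 of Acetatifactor had lowest, median and highest values of 5.93, 7.56 and 9.05 at 0%, 4.85, 6.57 and 7.98 at 0.5%, 5.37, 7.58 and 8.6 at 1%, and 5.33, 8.15 and 9.66 at 2.5%. The ratio thus spanned 1.99-fold over all 40 libraries. The members themselves spanned 11.3-fold (rank 4 of Acetatifactor) and 9.33-fold (rank 2 of L.bacterium335). The rest of Acetatifactor spanned 29.9-fold and the rest of L.bacterium335 spanned 127-fold. Within dose, rank 2 of L.bacterium335 had an r of 0.22 with the rest of its own genome (permutation, adjusted p = 0.401).

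At 0%, where values are a description, the same pair had r = 0.988 and rho = 0.952 over the 10 libraries, and r = 0.978 without the 2 farthest. Rank 2 of L.bacterium335 with rank 3 of Acetatifactor had an r of 0.896 within dose with broccoli (permutation, adjusted p = 9.57e-05), and an r of 0.972 at 0%. Rank 4 of L.bacterium335 with rank 2 of Acetatifactor had 0.883 with broccoli (permutation, adjusted p = 9.57e-05), and 0.901 at 0%, or 0.770 there without the 2 farthest libraries. Rank 7 of L.bacterium335 with rank 7 of Acetatifactor had 0.851 with broccoli (permutation, adjusted p = 9.57e-05), and 0.814 at 0%, or 0.501 there without the 2 farthest libraries. Of all 100 pairs between these genomes, 90 had a positive r at 0%, with a median of 0.60. The 2 members of a pair share the depth of each library. How reads shared between genomes were treated is not given, and its part in these pairs was not tested.

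**Figure D5:**
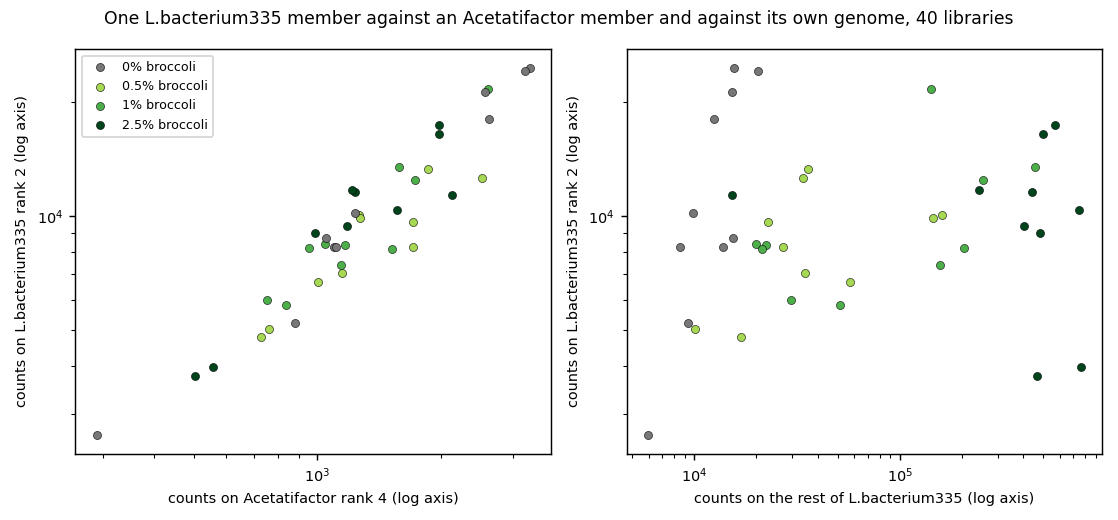
Counts on L.bacterium335 rank 2 (vertical axes) against counts on Acetatifactor rank 4 (left) and against the rest of L.bacterium335 (right), all on log axes, with 1 point for each of the 40 libraries coloured by broccoli. Points of all 4 doses lie along a single line on the left, where they span 11.3-fold of the horizontal axis and the ratio stays between 4.85 and 9.66. On the right they spread over 127-fold of the horizontal axis.

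Members of D. muris and X. muris also gave called pairs, 33 of 100. Pairs examined singly were those of a member with its closest partner in another genome. Of the called pairs so examined, none was called by rho (permutation, adjusted p between 0.0752 and 0.453). Most rested on few libraries: without the 2 farthest, r was 0.086 to 0.162, except for D. muris rank 4 with X. muris rank 7. That pair had r = 0.617 and rho = 0.452 (permutation, adjusted p = 0.0194 and 0.0752), and r = 0.545 without the 2 farthest libraries. D. muris rank 2 with X. muris rank 5 had r = 0.715 and rho = 0.281 (permutation, adjusted p = 0.0339 and 0.326), and r = 0.086 without the 2 farthest libraries. Within genomes, all 45 pairs were called in F. rodentium and in X. muris, 36 of 45 in D. muris, 35 in L.bacterium335 and 22 in Acetatifactor. All 45 F. rodentium pairs and 34 of X. muris had r above 0.8.

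The 10 most counted features with a gene symbol of each genome, chosen by the same sum at 0%, gave a comparison with known genes. In F. rodentium they were led by gap (a glycolytic dehydrogenase), dnaK (a chaperone) and tuf (elongation factor Tu). All 10 were called lower in unscaled counts at 2.5% against 0.5%, beside 89% of the genome's features. For gap the log2 fold change was -3.18 ± 1.03 (edgeR adjusted p = 0.00956), and it was -0.33 ± 0.17 relative to the genome (edgeR adjusted p = 0.336). The largest fall was that of spxA, a transcription regulator, at -4.12 ± 1.08 (edgeR adjusted p = 0.00651). In X. muris, 9 of 10 were called higher, beside 96.2% of the genome's features. They were led by tuf (2.71 ± 0.92, edgeR adjusted p = 0.00512) and by pnp and ppdK, which encode polynucleotide phosphorylase (3.55) and pyruvate phosphate dikinase (3.02). The tenth, the mobilization gene mobV_1, was called lower relative to the genome (-1.88 ± 0.46, edgeR adjusted p = 0.00774).

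Genes of mobile elements were among the most counted symbols of L.bacterium335 and Acetatifactor. The first 3 of L.bacterium335 were xerC_6, a tyrosine recombinase, and the transposon integrases Int-Tn_4 and Int-Tn_5. Int-Tn_5 had 204, 306 and 640 counts (lowest, median, highest) at 2.5% and 161, 334 and 521 at 0.5%, a change of 0.08 ± 0.52 on the log2 scale, with a 95% interval of -0.95 to 1.10. Int-Tn_4 had 0.53 ± 0.53 and was not called. Of the 10, 3 were called higher in unscaled counts (xerC_6, Int-Tn_2 and the sensor kinase gene rcsC_17), beside 1 of the members and 89.1% of all features. The first 3 of Acetatifactor were msmX (the ATPase of sugar transporters), tuf_2 and Int-Tn_3. Of that 10, tuf_2 rose by 1.87 ± 0.52 (edgeR adjusted p = 0.00491), as did pflB_2, a pyruvate formate-lyase gene (2.59), and pckA, a phosphoenolpyruvate carboxykinase gene (2.76). Of all Acetatifactor features, 77.3% were called higher in unscaled counts. Int-Tn_3, xerC_13 and rcsC_4 were called lower relative to their genome (log2 fold changes -1.74, -1.74 and -1.95), beside 3.3% of all features. In D. muris the first 3 were susC_3 (polysaccharide uptake), tolQ_2 (cell envelope) and tet(Q) (tetracycline resistance). None of the 10 was called in unscaled counts, beside 0.487% of features called higher, with 2 at an unadjusted p under 0.05. Numbered symbols are copies of a family whose separate counts are uncertain.

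By the spread of the ratio, 35 of these 50 features with a symbol were steadiest against their own genome, 7 against another genome and 8 against the 6 tables, beside 32, 10 and 8 of the members. In L.bacterium335 0 of 10 were steadiest against their own genome and 5 were so against Acetatifactor, and 8 varied less unscaled than against any total. For ribosomal protein genes, listed as a reference for growing cells, the changes between doses were taken and not the spread of the ratio. In L.bacterium335, 45 of 46 were called higher in unscaled counts at 2.5% against 0.5%, beside 89.1% of all features. Their median log2 fold change was 3.33, beside 3.31 over all features. Relative to the genome 0 of 46 were called, beside 1.43% of features called lower. In F. rodentium all 42 were called lower (beside 89% of features), with a median of -2.60. Called higher were all 36 in X. muris (96.2%), 30 of 31 in Acetatifactor (77.3%) and 1 of 38 in D. muris (0.487%). Stable RNA genes had 2 tested features, both in X. muris. Both were called higher in unscaled counts, as were 96.2% of its features, with a median of 2.84.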

How the data were processed

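The authors deposited whole-number read counts for the features of 6 bacterial genomes, a table for each, whose 40 columns were matched to libraries by name. Per the labels' protocols, cecal RNA was depleted of 5S, 16S and 23S ribosomal RNA before library preparation. Not given in the sources used here are the aligner, the counting program, the genome builds and how reads shared between genomes were treated. The members and lists were chosen with earlier results of these data known. The treatment label set the groups. Replicate numbers follow sample order and pair nothing. Of 180 library pairs within groups 0 were identical.

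Counts were fitted per genome with edgeR 4.0.16 (R 4.3.3) on features with at least 10 counts in at least 7 of the 30 broccoli libraries, with group means as the only terms. Library sizes were equal (unscaled) or set to a rest total without the members. Alternatives used DESeq2 1.42.0, TMM or RLE factors, no filter, totals with members, symbol-bearing totals, at least 10000 counts, and left-out libraries. Scripts were tested on simulated data. Correlations used log2(count + 0.5) and 100000 permutations (numpy 2.4.6). Named by identifier were called members with the largest changes, the first 2 each way over all genomes. Other members go by rank, comparison genes by their order at 0%.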

Additional observations from a re-analysis of the deposited data

Results flagged for a closer look

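Each dose group of 10 libraries was examined for a highest or lowest library far from its nearest neighbour. The gap between them had to take more of the group's range than Dixon's 95% critical value allows. Examined were the members' share of each genome, in percent, and the count of each rank 1 member on a log scale. Of 40 groups, 6 had such a library, and chance alone marks about 1 in 20 groups. At 2.5%, replicate 9 was marked 4 times: 85.0% of its L.bacterium335 counts and 98.9% of its X. muris counts lay on the members, and its counts on the rank 1 members of X. muris (2372) and D. muris (216) were the lowest of the group. At 0.5%, replicate 1 had 31.6% of its D. muris counts on the members. At 0%, replicate 2 had 14.8% of its F. rodentium counts on the members. The causes were not tested.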

How the results depend on the processing

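No paired analysis was possible because replicate numbers follow sample order only. At 2.5% against 0.5%, unscaled members called higher numbered 13 (main 7) with libraries of at least 10000 counts, and those called lower 0 (main 10) without the libraries numbered 76 to 81. Of the 13, 6 were of D. muris, where 32.5% of features were then called higher. Of all F. rodentium features, 0.0601% were called lower without the libraries numbered 76 to 81. Relative to the own genome, members called higher numbered 4 (main 0), all of X. muris, with RLE factors or with members in the denominator, and those called lower 9 with RLE factors and 27 without 2.5% replicate 9 (main 15). With TMM factors 22 were called lower, 10 of them in L.bacterium335, beside 7.16% of its features. With RLE factors 95.6% of all X. muris features were called higher. Where no share of all features is given here or above, none is at hand, and such a count is not a result about the members. At 1% against 0.5% (main 0), lower calls relative to the own genome numbered 2 (DESeq2), 2 (no filter) and 4 (without 2.5% replicate 9). Higher calls there numbered 1 (DESeq2), 3 (RLE) and 1 (members in the denominator). Relative to all tables together, calls numbered 3 (DESeq2), 2 (no filter) and 1 (without 2.5% replicate 9), all higher. At 2.5% against 1%, unscaled calls (main 0) numbered 5 with DESeq2, with at least 10000 counts or without 2.5% replicate 9, and 1 with no filter. Own-genome calls (main 2, both lower) numbered 15 without 2.5% replicate 9, 8 with TMM and 5 with at least 10000 counts, all lower. With RLE there were 4, all higher. There were 0 with DESeq2, with members in the denominator or without the libraries numbered 76 to 81. Calls relative to the 6 tables (main 10) numbered 0 without those libraries. Members steadiest against another genome numbered 6 (main 10) with members in the denominator. Those steadiest against the 6 tables (main 8) numbered 0 by highest correlation, 4 by within-dose SD and 14 without 2.5% replicate 9. The log2 fold change of X. muris rank 1 relative to its genome reversed, from 0.16 to -3.05 (at least 10000 counts), -2.94 (without 2.5% replicate 9), -1.76 (TMM) and -0.53 (members in the denominator). The causes were not tested. Of the other recomputed counts, 71 stayed within 1.5 times. The low totals of F. rodentium at 2.5%, down to 161, and of X. muris outside the members, down to 27, limit ratios to them.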
